A study of Mus musculus with 11 samples.

Results

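Rab proteins are small GTPases that mark the membranes of a cell, and their genes were followed here in RNA sequencing of mouse mitral leaflets, the flaps of the valve at the inlet of the left ventricle. The members were all genes whose symbol is Rab followed by a number and at most 1 letter and 1 further digit. This gave 58 of the 24062 genes in the table of the first experiment and 57 of the 26667 genes in the table of the second, which lacks a row for Rab42. Rab1 is the older symbol of Rab1a and Rab7l1 that of Rab29. The first experiment held 3 libraries labelled knockout, from mice with both Ift88 alleles floxed and an Nfatc1-driven Cre, and 2 wild-type libraries that carry the same Cre and unfloxed Ift88. The product of Ift88 belongs to intraflagellar transport, which builds and maintains cilia. Nfatc1 marks the endocardium, the inner lining of the heart, so cells of other origin in the leaflet need not have lost Ift88. In the second experiment, 3 libraries labelled Dzip1 S14R/+ carry 1 copy of a point mutation in Dzip1, a gene of the ciliary base, and 3 libraries are wild type for it. The age of the mice is not given in the sources used here. Nor do the labels tie each library to its own animal, so p-values measure the spread between these libraries, which may be technical.

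A Rab protein is switched on when an exchange factor loads it with GTP and off when a GTPase-activating protein makes it hydrolyse that GTP. In the on state it recruits effectors such as motors, tethers and lipid enzymes, and in the off state a GDI protein lifts it from the membrane. Rab8a, Rab8b, Rab10, Rab11a and Rab23 are linked to the primary cilium: Rab11a vesicles carry the exchange factor Rabin8 (gene Rab3ip) to the centrosome, where it activates Rab8 as the ciliary membrane forms. Rab8 and Rab10 also carry cargo to the plasma membrane, and Rab23 is a negative regulator of Hedgehog signalling, a pathway that runs through the cilium. Most other members serve transport between endoplasmic reticulum and Golgi, endosomes, lysosomes, pigment granules and regulated secretion. A further 4 were listed under junctions, cilia and other roles. Members of the other lists may have a ciliary link as well, so the rest is not a set of genes without one.

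The stretches just before the starts of the 5 cilium-linked genes are shown because these genes are compared with the rest throughout. Each is the 250 bases before the annotated start in RefSeq (GRCm38.p6), 5′ to 3′ on the strand of the gene, with CCAAT boxes and GC boxes (GGGCGG), each on either strand, in capitals.
Rab8a: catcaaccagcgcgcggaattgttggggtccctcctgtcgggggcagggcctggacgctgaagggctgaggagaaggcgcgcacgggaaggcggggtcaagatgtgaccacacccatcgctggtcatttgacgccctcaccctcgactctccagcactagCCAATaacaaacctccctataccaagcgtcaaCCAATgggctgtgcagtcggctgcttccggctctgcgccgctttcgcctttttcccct
Rab8b: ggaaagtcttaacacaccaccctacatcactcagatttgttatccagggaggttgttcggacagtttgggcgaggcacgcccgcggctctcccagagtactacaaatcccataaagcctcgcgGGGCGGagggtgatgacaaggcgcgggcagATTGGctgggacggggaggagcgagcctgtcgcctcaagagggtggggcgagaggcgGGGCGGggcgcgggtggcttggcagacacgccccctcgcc
Rab10: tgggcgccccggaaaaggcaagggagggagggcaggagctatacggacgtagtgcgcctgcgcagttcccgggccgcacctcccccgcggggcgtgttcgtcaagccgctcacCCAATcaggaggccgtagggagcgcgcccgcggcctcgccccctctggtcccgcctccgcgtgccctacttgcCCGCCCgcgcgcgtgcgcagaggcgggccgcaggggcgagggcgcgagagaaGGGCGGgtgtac
Rab11a: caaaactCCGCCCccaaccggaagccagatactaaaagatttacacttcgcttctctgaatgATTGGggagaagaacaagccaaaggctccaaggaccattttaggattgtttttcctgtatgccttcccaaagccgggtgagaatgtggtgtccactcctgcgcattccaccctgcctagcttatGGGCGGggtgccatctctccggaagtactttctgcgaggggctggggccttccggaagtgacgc
Rab23: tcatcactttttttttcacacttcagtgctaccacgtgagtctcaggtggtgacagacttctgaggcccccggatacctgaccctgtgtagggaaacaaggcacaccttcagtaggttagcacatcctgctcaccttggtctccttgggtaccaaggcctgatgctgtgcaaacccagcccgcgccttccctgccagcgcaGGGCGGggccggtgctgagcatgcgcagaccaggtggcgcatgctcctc
They lie at chr8:72160950-72161199 (plus strand) for Rab8a, chr9:66919706-66919955 (minus) for Rab8b, chr12:3309970-3310219 (minus) for Rab10, chr9:64737757-64738006 (minus) for Rab11a and chr1:33719646-33719895 (plus, the first of 2 listed starts) for Rab23. The stretch of Rab8a held 2 CCAAT boxes and no GC box, those of Rab8b, Rab10 and Rab11a held 1 CCAAT box and 2 GC boxes each, and that of Rab23 held 1 GC box and no CCAAT box. Rab10 had 34 CG dinucleotides, Rab8b 20, Rab8a 18, Rab11a 10 and Rab23 9.

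Of the 58 members, 48 had a start in the RefSeq table. A GC box stood in 33 of these 48 stretches (68.8%), against 32.9% of all 27025 stretches of the same length. A CCAAT box stood in 22 (45.8%, against 34.5% of all). GTTGCC, which makes up 1 arm of the X box that RFX factors of ciliary genes bind, was in 2 of the 48 (4.17%, against 10.5%). The E box CACGTG was in 4 (8.33%, against 6.05%), Rab23 among them. The 4 motifs were read on both strands; none contains another, though neighbouring matches can share end bases. The median number of CG dinucleotides was 16 in the Rab stretches and 6 in all stretches. It was 18 for the 39 members at or above 1 CPM (counts per 1000000 counts of the library, TMM-scaled) per kilobase in the Dzip1 wild type and 7.5 for the 8 members below that level. The background of all stretches was not matched for CG content or level, and GGGCGG itself holds a CG. No split by level is given for all genes, so these values are not shown to be particular to Rab genes. These matches describe the letters of the windows and are no evidence that a factor binds there.

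Total counts ran from 23.4 to 53.8 M (1 M is 1000000 counts) per library in the Ift88 experiment and from 75.1 to 93.5 M in the Dzip1 experiment, and the Rab genes took 0.435 to 0.634% and 0.241 to 0.249% of them. The 2 Ift88 wild-type libraries stood apart in cell type markers. The 25 cardiomyocyte markers summed to 91800 CPM in replicate 1 and 207 CPM in replicate 2, against 38200 to 51000 CPM in the knockout and 47700 to 56400 CPM in the Dzip1 experiment. The 12 endothelial markers summed to 395 CPM in replicate 1 and 3120 CPM in replicate 2, and to between 2010 and 3170 CPM in the knockout. The 12 valve interstitial markers were expressed in every library and summed to 2840 and 7810 CPM in the Ift88 wild type and to 11700, 11800 and 8080 CPM in the knockout, each above both wild types. In the Dzip1 experiment they summed to 7600, 8450 and 9270 CPM in the wild type and to 7450, 7740 and 7290 CPM in S14R/+. Between libraries of a group, the fitted coefficient of variation (edgeR) was 87.7% for Ift88 and 7.85% for Dzip1. Across genes, the authors' deposited log2 fold changes had a Spearman correlation of -0.543 (Dzip1) and 0.946 (Ift88) with those computed here from the labels. The direction of the deposited values is not stated, so the negative sign may come from a reversed contrast. In size the Dzip1 correlation was also the weaker, for a reason that was not tested. The deposited values were not used for the results.

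Ift88 itself had a level of 7.54 and 19.8 CPM with intact Ift88 alleles and of 3.00, 3.92 and 0.409 CPM where the label says knockout (log2 fold change -2.48 ± 1.13 SE, adjusted p = 0.802 by edgeR's quasi-likelihood test). All 3 knockout libraries were below both wild-type libraries, and the difference did not pass the threshold. Dzip1 was at 30.2, 27.8 and 31.8 CPM in the wild type and at 29.5, 28.1 and 28.5 CPM in S14R/+. A point mutation need not alter the level of the transcript, so this value does not check those labels.

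Levels of different Rab genes were compared per kilobase of exon. In the Dzip1 wild type the first was Rab1b at 81.8 ± 2.93 CPM per kilobase (SD, n = 3), and Rab1 stood at 50.8 ± 2.05 (SD, n = 3); both act between the endoplasmic reticulum and the Golgi. Rab2a, which acts at the same step, was at 76.1 ± 3.69 CPM per kilobase (SD, n = 3). The level of Rab5c, an early endosome Rab, was 46.0 ± 1.42 CPM per kilobase (SD, n = 3). Rab6a, of Golgi traffic, stood at 41.7 ± 0.748 CPM per kilobase (SD, n = 3), with 708 of its 3728 exon bases shared with Mrpl48 on the opposite strand. Rab10 followed at 41.1 ± 0.609 (SD, n = 3), Rab7, of late endosomes, at 40.2 ± 1.71 (SD, n = 3) and Rab11a at 37.1 ± 0.745 (SD, n = 3). Rab6a, Rab10 and Rab7 lay within their spread of each other, and Rab1b and Rab2a differed by less than the sum of their SDs.

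In the Ift88 wild type the same measure put Rab2a first, at 294 ± 29.4 CPM per kilobase (SD, n = 2). Rab11a followed at 245 ± 160 (SD, n = 2), a mean of 2 libraries far apart. Rab1 was at 140 ± 2.41, Rab1b at 116 ± 0.429, Rab10 at 91.7 ± 4.73 and Rab18 at 75.5 ± 5.10 CPM per kilobase (SD, n = 2 each). Rab6a was at 59.7 ± 13.2 and Rab11b at 47.1 ± 4.27 CPM per kilobase (SD, n = 2 each), within the spread of Rab6a from each other. Rab18 acts on the endoplasmic reticulum and lipid droplets, and Rab11b is the second Rab11 gene. Of the 8 highest members in each experiment 6 were shared: Rab1, Rab10, Rab11a, Rab1b, Rab2a and Rab6a. Across the 57 members in both tables, the wild-type levels per kilobase had a Spearman correlation of 0.851, as a description over genes whose lengths enter both values. The share of the summed Rab level per kilobase held by the 8 highest members was taken in each library, where these 8 can differ. It was 62.1 to 67.5% in the Ift88 libraries and 56.4 to 57.0% in the Dzip1 libraries.

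**Figure D1:**
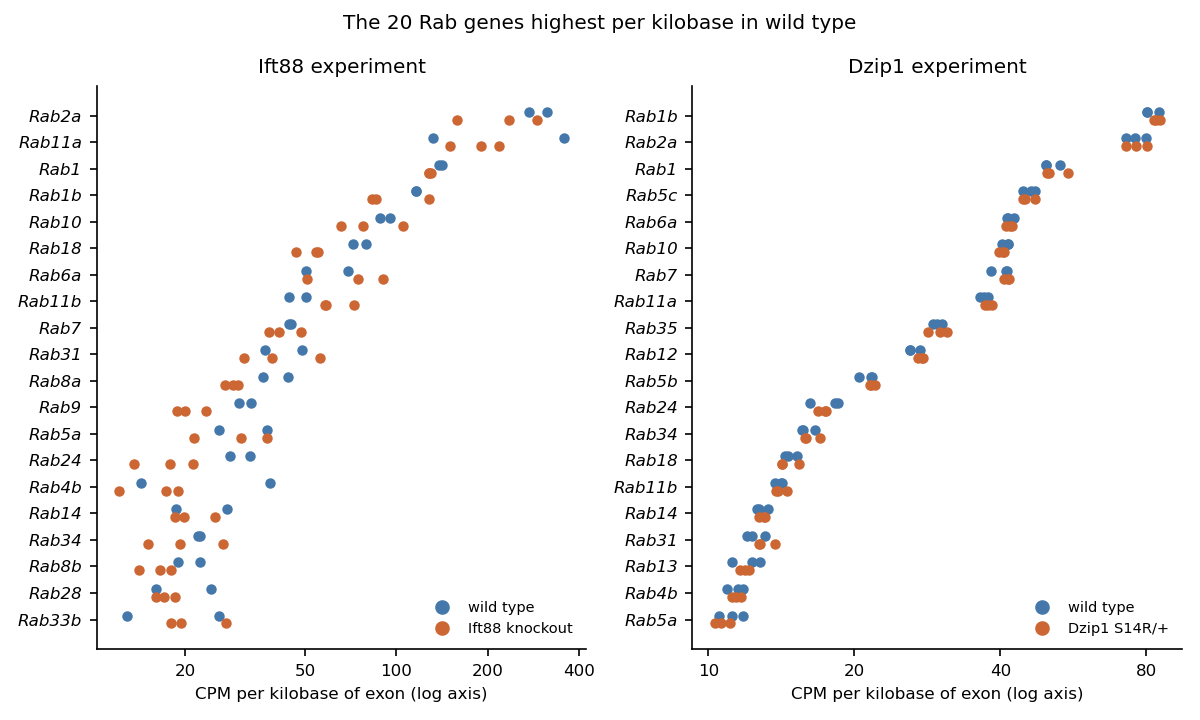
Level per kilobase (TMM-scaled CPM over the length of the merged exons, log axis) of the 20 Rab genes highest in the wild type of each experiment, 1 point per library. In the Dzip1 experiment the points of a gene lie close together, with Rab1b at 81.8 on average; in the Ift88 experiment the 2 wild-type points of Rab11a are the widest apart among the leading genes.

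By role, the 16 measured members of endoplasmic reticulum and Golgi transport held 46.3 ± 5.89% (SD, n = 2) of the summed Rab level per kilobase in the Ift88 wild type and 46.1 ± 2.84% (SD, n = 3) in the knockout. They held 41.2 ± 0.318% (SD, n = 3) in the Dzip1 wild type and 41.3 ± 0.268% (SD, n = 3) in S14R/+. The 15 early endosome and recycling members held 15.3 ± 1.42% (SD, n = 2) in the Ift88 wild type and 18.0 ± 0.35% (SD, n = 3) in the knockout, where each library (17.6 to 18.3%) was above the wild-type libraries (14.3 and 16.3%), a difference given here without a test. In the knockout the 14 tested among these members had a median log2 fold change of -0.04, with 6 above 0. In the Dzip1 experiment the 15 members held 25.8 ± 0.105% (SD, n = 3) and 25.8 ± 0.0610% (SD, n = 3). The 5 cilium-linked genes made up 24.4 ± 7.17% (SD, n = 2) of the Ift88 wild type and 22.6 ± 3.98% (SD, n = 3) of the knockout, and 13.7 ± 0.160% (SD, n = 3) and 13.5 ± 0.0266% (SD, n = 3) of the Dzip1 wild type and S14R/+. The 8 members of regulated secretion together held 1.60 ± 0.0285% (SD, n = 2) and 1.45 ± 0.240% (SD, n = 3) in the first experiment.

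At the other end, Rab25, a Rab11 relative of epithelia, had no count in any Ift88 library; 3 counts would be 0.052 to 0.123 CPM there, which bounds its level for counting error only. Its level in the Dzip1 libraries ran from 0 to 0.0638 CPM, and it did not pass the filter on low counts. In the Ift88 table Rab26, Rab39, Rab3c and Rab44 did not pass it either. Rab3c is a Rab of synaptic vesicles.

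The first comparison asks how loss of Ift88 bears on the Rab genes. Of 14244 tested genes none passed an adjusted p of 0.05 by edgeR (0% called), with 856 (6.01%) at an unadjusted p under 0.05, and none was called by limma-voom. DESeq2 called 218 of 14235 genes (1.53%). Among the 53 tested members no gene was called by any of the 3 tools and none had an unadjusted p under 0.05. The members' adjusted p by edgeR ran from 0.802 to 1.00. Of the 53, 20 had a fold change above 0 and 33 below, with a median of -0.09 on the log2 scale, against -0.013 over all tested genes. All 3 knockout libraries lay above both wild-type libraries for 3 members (5.66%; background 13.5% of tested genes) and below both for 7 (13.2%; background 11.1%), both near or under the background. In bulk RNA, fewer cells of a type and less RNA per cell cannot be told apart. After removal of each library's trend with transcript length the members' median was 0.04, with 31 above 0, so the split between higher and lower members turned. It also turned without wild-type replicate 2, with 29 members above 0 and a median of 0.09, against 0.18 over the same tested genes. With the level of the cardiomyocyte markers as a covariate 28 of the 53 were above 0, and the median over all tested genes was 0.231.

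Rab8a, which drives vesicles to the ciliary membrane, was at 170 and 205 CPM in wild type and at 127, 135 and 140 CPM in the 3 knockout libraries. Each knockout library was below both wild types, by a log2 fold change of -0.48 ± 0.305 (SE) with a 95% interval from -1.22 to 0.26 (adjusted p = 0.861 by edgeR). Its paralogue Rab8b was at 106 and 89.6 CPM in the wild type and at 66.8, 85.4 and 78.0 CPM in the knockout. The groups again did not overlap, with a log2 fold change of -0.35 ± 0.320 (SE) and an interval from -1.13 to 0.42. Over all alternatives run, the log2 fold change of Rab8a stayed between -0.64 and -0.34 and that of Rab8b between -0.48 and -0.26, and neither passed a threshold in any of them.

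Rab10 was at 334 and 310 CPM in the wild type and at 272, 370 and 231 CPM in the knockout, so the groups overlapped (log2 fold change -0.15 ± 0.358 SE). Rab11a was at 396 and 1070 CPM in the wild type and at 568, 654 and 448 CPM in the knockout. The knockout libraries lay between the 2 wild types, and the log2 fold change of -0.40 ± 0.511 (SE) depended on which wild type was used: it was 0.49 without wild-type replicate 2 and -0.98 without replicate 1. Rab23 was at 23.2 and 18.1 CPM in the wild type and at 18.4, 26.5 and 25.4 CPM in the knockout (0.18 ± 0.457 SE), also with overlap. The 5 cilium-linked genes had a median log2 fold change of -0.35, with 1 above 0 and 4 below, and the other 48 tested members a median of -0.09 with 19 above 0. After the length correction the 5 had a median of -0.20 with 1 above 0, and the other 48 turned to 0.12 with 30 above 0. Without wild-type replicate 2 the medians were -0.20 and 0.18. With the length correction Rab10 moved to 0.06 and Rab23 to -0.20 on the log2 scale, and Rab8a to -0.44.

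**Figure D2:**
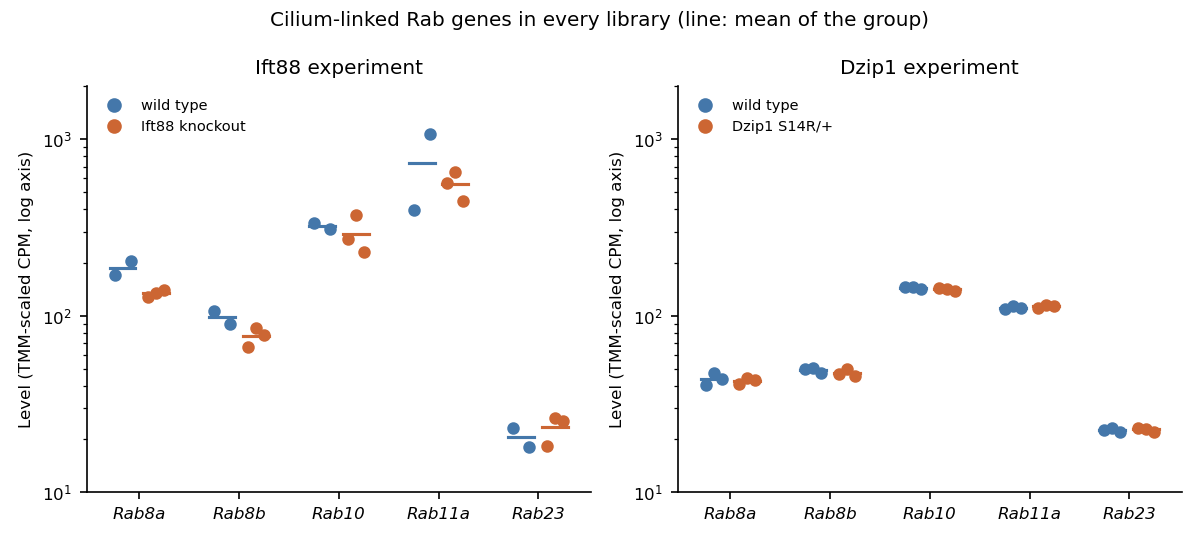
Level (TMM-scaled CPM, log axis) of the 5 cilium-linked Rab genes in every library of both experiments, with a line at the mean of each group. The knockout points of Rab8a (127 to 140 CPM) lie below both wild-type points (170 and 205 CPM), the 2 wild-type points of Rab11a are far apart, and the Dzip1 groups overlap for every gene shown.

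Outside these 5, Rab24, a Rab linked to autophagy, had the smallest p of the members tested with a mean count of at least 50. It was at 56.6 and 66.1 CPM in the wild type and at 27.4, 36.0 and 43.0 CPM in the knockout, with no overlap (log2 fold change -0.79 ± 0.373 SE, adjusted p = 0.802 by edgeR). Of its 2015 exon bases 1258 are shared with Prelid1 on the opposite strand, and the strand setting of the counting is not given in the sources used here, so reads of the 2 genes cannot be told apart. Rab9, which returns receptors from late endosomes to the Golgi, was at 57.8 and 52.9 CPM against 32.8, 35.0 and 41.0 CPM, also without overlap (-0.61 ± 0.345 SE). Rab18 was at 542 and 492 CPM in the wild type and at 377, 319 and 372 CPM in the knockout, again without overlap (-0.54 ± 0.326 SE). In the length-corrected fit the values were -0.49 for Rab24, -0.26 for Rab9 and -0.76 for Rab18. The remaining members whose knockout libraries were below both wild types were Rab1 and Rab7l1.

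Rab35, which acts in fast recycling from endosomes, was at 29.0 and 25.7 CPM in the wild type and at 38.0, 36.7 and 58.1 CPM in the knockout. All knockout libraries were above, by a log2 fold change of 0.69 ± 0.410 (SE, adjusted p = 0.847 by edgeR). Rab11b was at 307 and 270 CPM in the wild type and at 356, 445 and 358 CPM in the knockout, above in every library as well (0.42 ± 0.335 SE). Its exons overlap a predicted gene. Rab33a, a Golgi Rab, was the third such member, at 4.60 and 0 CPM in the wild type and at 8.25, 12.9 and 12.2 CPM in the knockout. It was the single member called in any fit: without wild-type replicate 1 the lone wild-type library has no count of it, and its adjusted p by edgeR was 0.0435, in a fit that called 187 of 15340 genes (1.22%). Rab4b, a recycling Rab, was at 28.1 and 75.5 CPM against 37.4, 34.2 and 23.8 CPM, with overlap (-0.71 ± 0.522 SE). Rab17, an epithelial Rab, was at 8.26 and 0 CPM in the wild type and between 0 and 0.826 CPM in the knockout. Rab37, of secretory granules, was listed at 0 in both wild types and at 0, 0.519 and 1.76 CPM in the knockout, and no fold is given for it.

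By role, the 15 tested members of endoplasmic reticulum and Golgi transport had a median log2 fold change of -0.09 with 7 above 0, and the 14 of early endosomes and recycling -0.04 with 6 above. The 7 of late endosomes, lysosomes and autophagy had a median of -0.16 with 1 above 0, Rab12, and 3 of the 7 lay below the wild type in every library (Rab24, Rab7l1 and Rab9), against 11.1% of all tested genes. All 3 lists turned with the length correction, to a median of 0.14 with 11 of 15 above 0 for endoplasmic reticulum and Golgi transport, 0.17 with 9 of 14 above 0 for early endosomes and recycling, and 0.18 with 5 of 7 above 0 for late endosomes, lysosomes and autophagy. These 7 share the wild-type libraries with every other member, and the list stands here as a description.

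**Figure D3:**
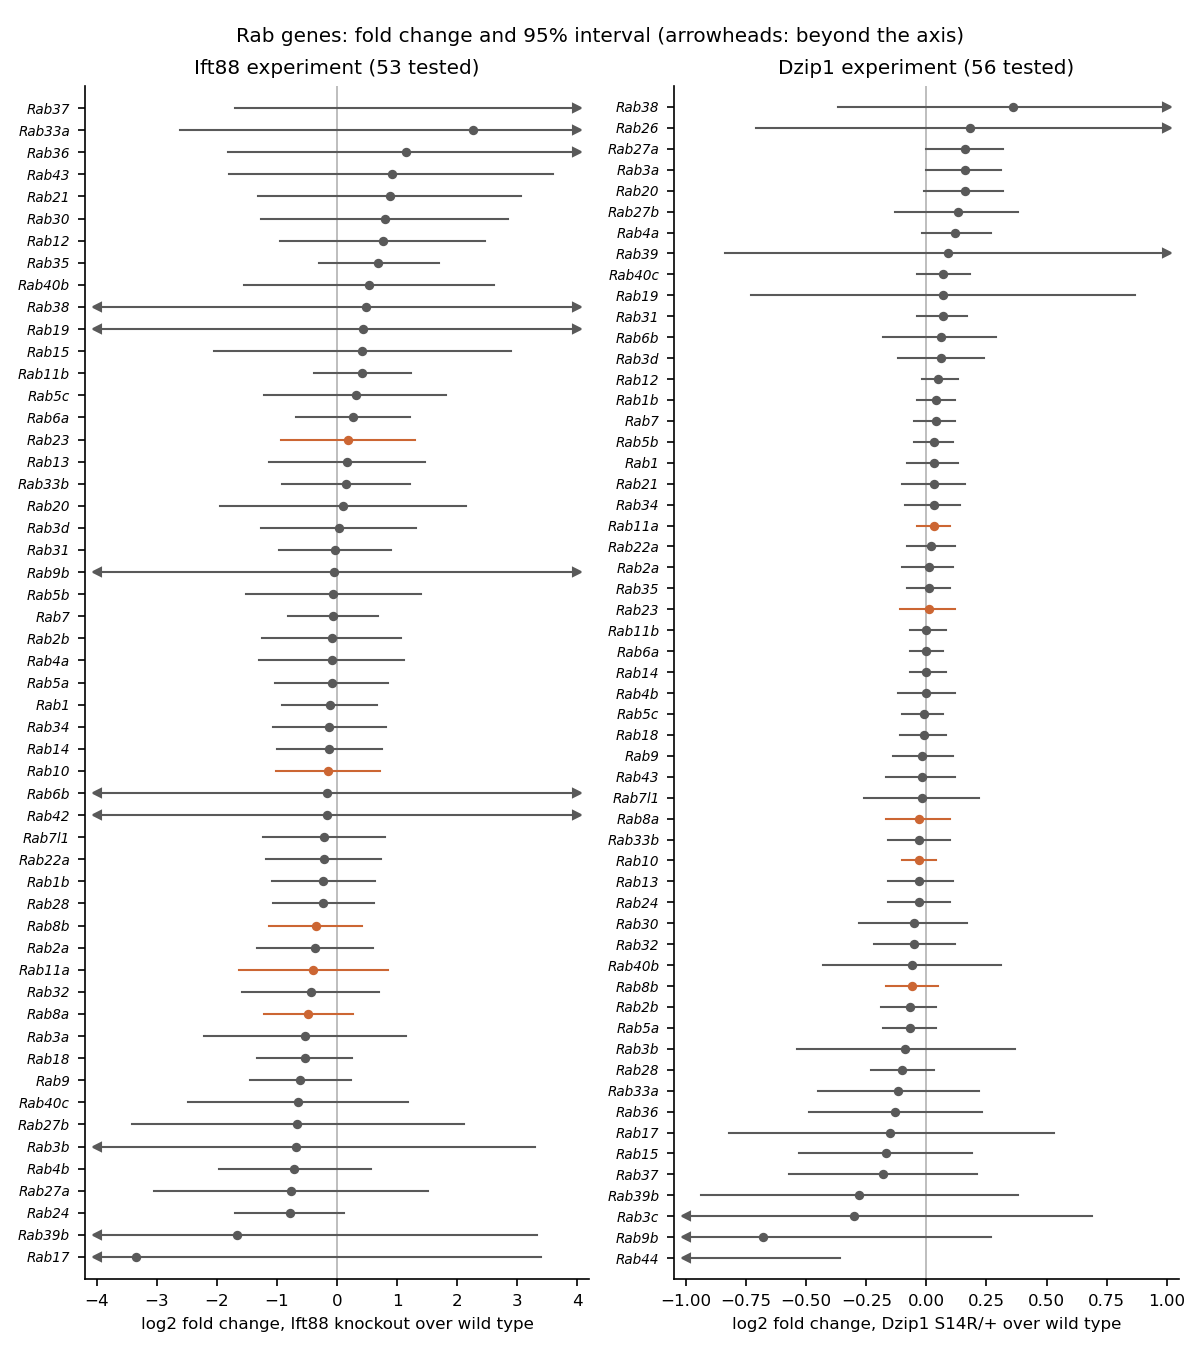
Log2 fold change of every tested Rab gene with its 95% interval, mutant over wild type, in the Ift88 (left, 53 genes) and Dzip1 (right, 56 genes) experiments, the cilium-linked genes in orange; the axes differ and Rab37 (left) and Rab44 (right) lie beyond them. Every interval on the left holds 0 and those of 3 genes lie within 2-fold of no change; on the right 33 of the 56 lie within 1.2-fold.

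The precision differed between the experiments. In the Ift88 experiment the median SE of the members' log2 fold changes was 0.522, no interval lay within 1.2-fold of no change, and those of 3 members lay within 2-fold (2.93% of all tested genes did). In that wild type, 21 of the 50 members with a mean count of at least 50 differed by over 2-fold between the 2 libraries (42.0%; 48.4% of all such genes). Rab27b was at 3.43 CPM in replicate 1 and 105 CPM in replicate 2, and Rab43 at 1.79 and 35.7 CPM. Rab20 went the other way, at 38.6 and 4.75 CPM. Rab3a, a Rab of secretory vesicles, was at 39.3 and 9.24 CPM. These 4 genes were picked after their values were seen as examples of the spread. The same libraries differed in their cardiomyocyte and endothelial markers as given above, and the part of those cells in the spread was not tested.

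**Figure D4:**
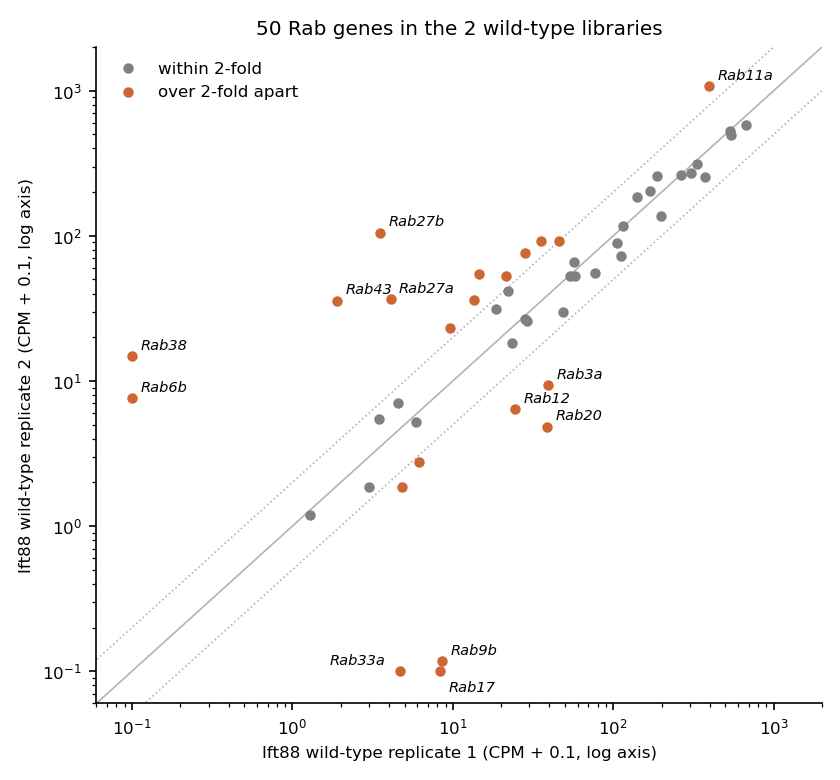
CPM plus 0.1 of 50 Rab genes (mean count of at least 50) in the 2 Ift88 wild-type libraries, replicate 1 against replicate 2, both axes logarithmic, with the line of equality and dotted lines at 2-fold. The 21 genes in orange are over 2-fold apart, on both sides of the line, with Rab27b at 3.43 and 105 CPM.

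The second comparison asks how a heterozygous Dzip1 S14R allele bears on the same genes. Of 16160 tested genes none passed the threshold by edgeR (0% called), and none by DESeq2 or limma-voom; 959 (5.93%) had an unadjusted p under 0.05. Among the 56 tested members 3 had one, and their adjusted p by edgeR ran from 0.822 to 1.00. The members split into 27 above 0 and 29 below, with a median log2 fold change of -0.0019, against -0.00033 over all tested genes. All S14R/+ libraries were above all wild types for 4 members (7.14%; background 5.27%) and below for 0 (background 5.01%).

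The cilium-linked genes were close to equal in the 2 groups. Rab8a was at 40.6, 47.3 and 44.0 CPM in the wild type and at 41.0, 44.4 and 43.3 CPM in S14R/+, a log2 fold change of -0.03 ± 0.0600 (SE) with a 95% interval from -0.17 to 0.10. Rab8b was at 50.2, 50.7 and 47.3 CPM and at 46.9, 49.9 and 45.6 CPM (-0.06 ± 0.0485 SE, interval -0.17 to 0.05). Rab10 was at 146, 145 and 142 CPM and at 143, 142 and 139 CPM (-0.03 ± 0.0314 SE, interval -0.10 to 0.04). For these 3 genes the groups overlapped and the intervals lay within 1.2-fold of no change. Rab11a was at 109, 113 and 111 CPM in the wild type and at 111, 115 and 113 CPM in S14R/+ (0.03 ± 0.0324 SE, interval -0.04 to 0.10). Rab23 was at 22.6, 23.3 and 22.1 CPM and at 23.3, 23.0 and 22.1 CPM, with an interval from -0.11 to 0.12, and its groups overlapped as well. In all, 33 of the 56 members had an interval within 1.2-fold of no change (58.5% of all tested genes) and 50 within 2-fold (88.3%). The median SE of the members was 0.0597.

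The 4 members whose S14R/+ libraries were all higher were Rab27a, Rab3a, Rab20 and Rab40c. Rab27a, which tethers secretory and pigment granules, was at 7.94, 8.51 and 7.94 CPM in the wild type and at 9.14, 8.79 and 9.38 CPM in S14R/+ (log2 fold change 0.16 ± 0.0713 SE, adjusted p = 0.828 by edgeR). Rab3a was at 12.1, 11.7 and 11.1 CPM and at 12.6, 14 and 12.4 CPM (0.16 ± 0.0693 SE). Rab20, a Rab of phagosomes and endosomes, was at 7.64, 8.18 and 7.39 CPM and at 8.41, 8.78 and 8.71 CPM (0.16 ± 0.0739 SE). Rab40c, which belongs to a ubiquitin ligase, differed by 0.07 ± 0.0486 (SE). Rab3a shares 29 of its 2226 exon bases with Mpv17l2. Rab20 shares 356 of its 1392 exon bases with another gene, so the split of its reads is uncertain.

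The 3 members with an unadjusted p under 0.05 were Rab27a, Rab3a and Rab44, the last with a mean count under 50 and named for that p after it was seen. Rab44, a large Rab of leukocytes, was at 0.367, 0.0894 and 0.916 CPM in the wild type and at 0.151, 0.0777 and 0.129 CPM in S14R/+ (-1.92 ± 0.701 SE, adjusted p = 0.822 by edgeR), and the groups overlapped. Its log2 fold change was -0.93 without wild-type replicate 3, the library with its highest level, and -2.41 without replicate 2. Of 14 leukocyte markers 13 were tested, and they summed to 124, 133 and 152 CPM in the wild type and to 111, 122 and 122 CPM in S14R/+; their part in the level of Rab44 was not tested.

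The other members with the smallest p in this experiment were Rab4a, Rab28, Rab12, Rab2b, Rab5a and Rab31. Rab4a, of fast recycling, was at 12.9, 13.1 and 13.6 CPM in the wild type and at 13.6, 15.4 and 14.2 CPM in S14R/+ (0.12 ± 0.0647 SE). Rab28, found at the cilium in some species, was at 23.2, 22.5 and 24.7 CPM and at 23.1, 21.5 and 21.2 CPM (-0.10 ± 0.0593 SE). The log2 fold changes of the remaining 4 were 0.05 ± 0.0339 (SE) for Rab12, -0.07 ± 0.0530 (SE) for Rab2b, -0.07 ± 0.0502 (SE) for Rab5a and 0.07 ± 0.0488 (SE) for Rab31. None of the 6 separated the groups.

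Paralogues were compared by their share of the summed level per kilobase. Of Rab8a plus Rab8b in the Ift88 experiment, Rab8a made up 61.8 and 69.8% in wild type and 65.9, 61.6 and 64.5% in knockout libraries, so that it was the larger of the pair in each library and the groups overlapped. In the Dzip1 experiment the pair was near even, with Rab8a at 47.3 ± 2.03% (SD, n = 3) in the wild type and 47.8 ± 1.06% (SD, n = 3) in S14R/+. Rab11a made up 72.5 and 89.0% of Rab11a plus Rab11b in the Ift88 wild type and 76.6, 75.1 and 71.9% in the knockout. Its share was 72.5 ± 0.147% (SD, n = 3) in the Dzip1 wild type and 72.9 ± 0.599% (SD, n = 3) in S14R/+. Among the Rab5 genes, which share the early endosome, Rab5c led in the Dzip1 experiment with 58.7 ± 0.798% (SD, n = 3) in the wild type and 58.4 ± 0.626% (SD, n = 3) in S14R/+, and Rab5a held 14.2 ± 0.918% (SD, n = 3) in the wild type. In the Ift88 experiment Rab5a held 74.5 and 44.2% in wild type and 48.8, 64.9 and 51.2% in knockout libraries, more than Rab5b or Rab5c in each library. None of these shares separated the mutants from their wild types. The 2 tables were normalized apart, and the exon models of paralogues differ, so a share between experiments carries the counting of each table.

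**Figure D5:**
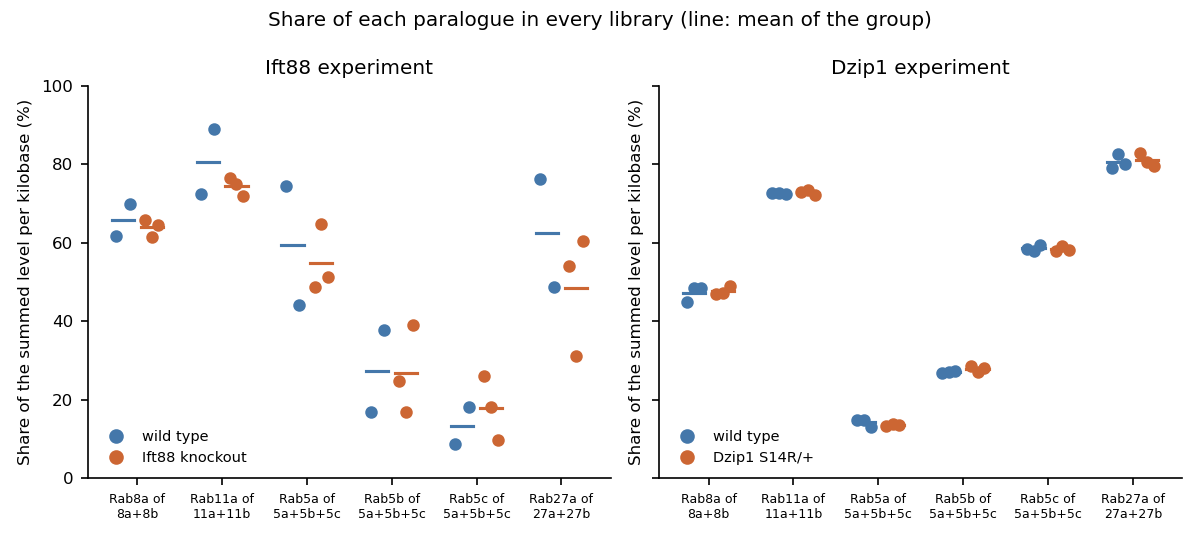
Share (%) of a paralogue in the summed level per kilobase of its family, 1 point per library, with a line at the mean of each group. Rab5c holds 58.0 to 59.5% of the Rab5 genes in the Dzip1 wild type and 8.65 and 18.1% in the Ift88 wild type, and the mutant points overlap the wild-type points in every column.

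Rab32, Rab38 and Rab27a serve the pigment granule, so they are given beside 10 melanocyte markers. Rab38 was at 0 and 14.8 CPM in the Ift88 wild type and at 7.14, 6.46 and 17.3 CPM in the knockout. Rab32 was at 22.1 and 41.4 CPM and at 21.6, 20.1 and 28.6 CPM. Rab27a was at 4.00 and 36.4 CPM in the wild type and at 13.5, 7.41 and 14.9 CPM in the knockout, and Rab27b at 31.6, 45.2 and 26.7 CPM in the knockout. All 4 genes were higher in wild-type replicate 2 than in replicate 1, and the groups overlapped. The melanocyte markers summed to 97.7 and 101 CPM in these wild types, with Slc45a2, Oca2 and Trpm1 at 0 in replicate 1 and Oca2 at 0 in replicate 2, and to 300, 96.8 and 158 CPM in the knockout. In the Dzip1 experiment they summed to 53.6 to 62.8 CPM, with Tyrp1 or Oca2 at 0 in each library, and Rab38 was at 0.355 to 0.894 CPM. Rab27a made up 80.6 ± 1.89% (SD, n = 3) of Rab27a plus Rab27b there in the wild type and 81.0 ± 1.67% (SD, n = 3) in S14R/+. In the Ift88 experiment that share ran from 31.1 to 76.3%. The part of pigment cells in these levels was not tested.

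The proteins that switch and read Rab proteins were counted from lists. In the Ift88 experiment edgeR called none of them; an unadjusted p under 0.05 was met by 0 genes for GDI, escort and prenylation proteins, 1 exchange factor, 1 GTPase-activating protein, 3 effectors and 1 gene of the Rab8 pathway. DESeq2 called 1 exchange factor and none in the other lists. Over all tested genes 6.01% had an unadjusted p under 0.05 by edgeR, and DESeq2 called 1.53%. Of 8 tested genes for GDI, escort and prenylation proteins, which keep Rab proteins soluble and attach their lipid anchor, 5 were above 0 and 3 below, with a median log2 fold change of 0.08. All knockout libraries were above the wild type for Gdi2 and Chml and below for Rabac1, a Golgi protein that binds prenylated Rabs. Rabac1 was at 356 and 390 CPM in the wild type and at 240, 152 and 244 CPM in the knockout (-0.81 ± 0.360 SE). Chml, which encodes Rab escort protein 2, was at 2.85 and 0 CPM against 10.0, 24.5 and 12.0 CPM.

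Of 32 tested exchange factors 24 were above 0 (median 0.50, or 0.17 after the length correction). In every knockout library 6 were above (18.8%, background 13.5%) and 2 below (6.25%, background 11.1%). Dennd5b, an exchange factor with a DENN domain, was at 2.66 and 8.77 CPM in the wild type and at 32.6, 29.1 and 47.0 CPM in the knockout. It was the only gene of this list that DESeq2 called (adjusted p = 0.0291), and by edgeR its log2 fold change was 2.66 ± 0.695 (SE, adjusted p = 0.802). Dennd6a, an exchange factor for Rab14, was at 55.5 and 88.1 CPM against 28.8, 45.2 and 46.9 CPM (-0.83 ± 0.411 SE). Of 38 GTPase-activating proteins 25 were above 0 (median 0.30, length-corrected 0.06), 7 in every library (18.4%), and 3 were below in every library (7.89%). Tbc1d1, which acts on Rab10 and Rab8a in muscle, was at 31.3 and 27.5 CPM in the wild type and at 63.7, 72.4 and 78.2 CPM in the knockout (1.28 ± 0.349 SE). Tbc1d8b was at 4.19 and 10.3 CPM against 21.4, 18.6 and 21.4 CPM (1.5 ± 0.637 SE).

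Of 42 tested effectors 33 were above 0 and 9 below (median 0.53, length-corrected 0.33), with 13 above in every knockout library (31.0%) and 0 below. Gcc2, a Golgi tether with a Rab6 binding site, was at 7.54 and 2.84 CPM in the wild type and at 22.7, 25 and 16.5 CPM in the knockout (2.05 ± 0.694 SE). Mical3, which binds Rab8 and oxidizes actin, was at 4.41 and 5.75 CPM against 16, 23.3 and 13.4 CPM (1.79 ± 0.640 SE). Of 28 tested genes of the Rab8 ciliary vesicle pathway, which shares genes with the other lists, 16 were above 0 (median 0.50, length-corrected 0.20), with 11 above in every library (39.3%) and 0 below. Ahi1, a protein of the ciliary base that binds Rab8a, was at 0.114 and 3.19 CPM in the wild type and at 14, 18.8 and 28.2 CPM in the knockout (3.61 ± 1.38 SE). Cc2d2a, of the ciliary transition zone, was at 0.457 and 0.104 CPM against 8.56, 6.63 and 0.450 CPM, with overlap. The background of non-overlap is 13.5% above and 11.1% below, as for the members. Without wild-type replicate 2 the medians over these lists were 1.34 for the exchange factors, 0.84 for the GTPase-activating proteins, 0.75 for the effectors and 0.94 for the Rab8 pathway, against 0.18 over all tested genes. Without replicate 1 they were 0.17, 0.18, 0.54 and 0.52, against 0.09. Cell type markers stood beside these lists as follows: 11 of 12 valve interstitial markers were above 0 (median 0.94), 7 of them above in every knockout library (58.3%), and 11 of 12 endothelial markers were above 0 (median 0.87), 5 of them in every library (41.7%), with Erg at 0 in wild-type replicate 1. The endothelial markers summed to 395 and 3120 CPM in the wild type and to 2010, 3170 and 2430 CPM in the knockout. Epicardial markers had the largest median of the marker lists, 4.29 with 5 of 7 tested above 0, or -0.90 without knockout replicate 2. Erythroid and platelet markers had a median of -1.61, with 0 of 4 tested above 0. None of these markers was called by edgeR, and DESeq2 called 3 interstitial, 2 epicardial and 1 endothelial marker. The part of these cells in the levels of the Rab regulators was not tested. Single genes also moved with the settings. With the length correction the log2 fold change of Mical3 was 0.57, that of Dennd5b 1.72 and that of Rabac1 -0.45. Ahi1 was at 2.64 without wild-type replicate 1 and at 7.43 without replicate 2. The edgeR adjusted p of the genes in these lists was 0.802 or more.

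In the Dzip1 experiment the same lists held medians near 0: 0.0058 for the 8 GDI, escort and prenylation genes, -0.03 for 31 exchange factors, -0.0062 for 37 GTPase-activating proteins, -0.0057 for 46 effectors and 0.0018 for 26 genes of the Rab8 pathway. Of the 31 exchange factors 7 were above 0 and 24 below, with 1 above in every library (3.23%; background 5.27%) and 3 below (9.68%; background 5.01%). Dennd1c, another DENN domain protein, was at 0.886, 0.868 and 1.40 CPM in the wild type and at 0.478, 0.677 and 0.668 CPM in S14R/+ (log2 fold change -0.79 ± 0.276 SE, adjusted p = 0.822 by edgeR). Als2cl was at 5.84, 5.30 and 6.42 CPM against 5.13, 5.12 and 4.87 CPM (-0.22 ± 0.0999 SE). Of the GTPase-activating proteins 0 were above and 5 below in every library (13.5%; background 5.01%), Tbc1d2b among them at 41.5, 40.6 and 41.0 CPM against 40.2, 36.5 and 36.2 CPM (-0.13 ± 0.0521 SE). The other lists were under the background. Of the effectors 2 were above and 2 below in every library (4.35% each), and of the Rab8 pathway 1 was above (3.85%) and 0 below. Of the GDI, escort and prenylation genes 0 were above and 0 below. The effector Micall2, which binds Rab13 and Rab8, was at 5.39, 4.56 and 4.58 CPM against 4.33, 4.12 and 4.04 CPM (-0.22 ± 0.108 SE). Of the cell type markers here, 11 of 12 valve interstitial (median -0.10) and 12 of 13 tested leukocyte markers (median -0.25) were below 0. So were 7 of 8 erythroid and platelet markers (median -0.78, the largest of the lists) and 7 of 8 epicardial markers (median -0.14). Above 0 were 22 of 25 cardiomyocyte markers (median 0.09). The endothelial markers were split evenly, with 6 of 12 above 0, as were the melanocyte markers, with 3 of 6 tested. Of the Schwann and neuron markers 8 of 11 tested were below 0 (median -0.10). The part of these cells in the levels of the Rab regulators was not tested.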

How the data were processed

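RNA of mouse mitral leaflets was made into libraries with a low-input kit (SMART-Seq v4) per the labels' protocols. Counts per gene were deposited by the authors in 1 table per experiment. The submitters' processing notes name cutadapt 1.11, FastQC 0.11.5, HTSeq, DESeq and DESeq2, and the build mm10 (GRCm38). For the aligner and the strand setting, neither is given in the sources used here. The log2 fold changes and the p-values in the tables are the authors' own, per the file headers, and served only as a check.

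Each table was fitted on its own over all genes with the quasi-likelihood test of edgeR 4.0.16 (R 4.3.3) after filterByExpr and TMM scaling, at a Benjamini-Hochberg threshold of 0.05. Fold changes are mutant over wild type, levels are TMM-scaled CPM, and levels per kilobase use merged exon lengths of GENCODE M21 (26413 of 28591 symbols matched). Intervals cover the spread between libraries, and a floor of 3 counts covers counting error only. DESeq2 1.42.0, limma-voom (limma 3.58.1), other scalings and filters, a length correction (lowess, span 0.3) and each library left out were the alternatives. For Ift88 there were also fits of the libraries with the title prefix IR28N alone, and with that prefix or the cardiomyocyte marker level as a covariate. The fits were also run on simulated data, with an outcome not reported here, so that run vouches for neither fit. What the Ift88 fit could show is given by its intervals.

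The members, lists and rules were chosen with earlier results of these data known. By rule the text names the 5 cilium-linked genes, the 10 members with the smallest p and a mean count of at least 50, the 8 highest per kilobase, pigment and paralogue members, and up to 2 genes per regulator list. A gene that the rule also covers is not reported here. Of the 58 members 13 share exon bases with another gene counted in the tables, and 20 with any annotated gene.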

Additional observations from a re-analysis of the deposited data

How the results depend on the processing

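No paired analysis was possible because the labels give the libraries no replicate numbers shared between groups; the title prefix IR28N, whose meaning the labels do not give, was fitted as a covariate instead. No Rab gene was called in either experiment under any alternative except 1 in the Ift88 experiment, so its count ranged from 0 to 1 when libraries were left out (Rab33a, adjusted p = 0.0435 by edgeR without wild-type replicate 1). The fit of all genes moved with it, from 0 to 187 calls. Log2 fold changes that changed sign passed the threshold in no setting, and the cause was not tested. With limma-voom Rab17 was at 0.51 and Rab27b at 0.27. With the length correction Rab10 was at 0.06, Rab23 at -0.20, Rab1 and Rab1b at 0.04 and Rab5b at 0.03. In the libraries with the title prefix IR28N alone, Rab11a was at 0.63, Rab23 at -0.05, Rab4b at 0.35, Rab27a at 1.39, Rab27b at 3.49 and Rab5b at 0.28. With that prefix as a covariate Rab27a was at 0.17, Rab27b at 0.91 and Rab5b at 0.20. With the cardiomyocyte level as a covariate Rab11a was at 0.36, Rab4b at 0.05, Rab27a at 1.28, Rab27b at 2.86 and Rab5b at 0.65. With each Ift88 library left out in turn, values ran from -0.98 to 0.49 for Rab11a, -4.40 to 6.97 for Rab17, -1.64 to 1.58 for Rab27a, -1.64 to 3.33 for Rab27b, -0.85 to 0.09 for Rab32, -0.55 to 11.33 for Rab38, -1.28 to 0.18 for Rab4b, -0.33 to 0.17 for Rab5a, -0.62 to 0.79 for Rab5b and -0.23 to 1.09 for Rab5c. Rab33a ran from 1.27 to 11.75 and Chml from 2.44 to 12.23 without changing sign, both highest without wild-type replicate 1, where the lone wild-type library has no count of them and both passed the threshold (adjusted p = 0.0382 for Chml by edgeR). A lone wild-type library is assumed there to vary like the knockout. Left-out Dzip1 libraries gave -0.04 to 0.04 for Ift88, -0.02 to 0.06 for Rab1, -0.02 to 0.02 for Rab11b, -0.01 to 0.03 for Rab23, -0.03 to 0.04 for Rab2a, -0.04 to 0.003 for Rab5c, -0.01 to 0.01 for Rab6a, -0.09 to 0.02 for Rab8a and -0.00025 to 0.10 for Rabggta. The median of the Rab genes ran from -0.16 to 0.09 over all Ift88 settings and from -0.02 to 0.01 over all Dzip1 settings. In the Ift88 experiment the spread between libraries, and in members with few counts the depth, limits what could be seen.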

Other observations

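Set side by side, the levels of some Rab genes did not overlap between the 2 tables. In TMM-scaled CPM, 23 of the 57 shared members were higher in every Ift88 library and 6 were higher in every Dzip1 library. The same share over all genes was not computed, so these counts are not shown to be particular to Rab genes. The 2 tables were normalized and made apart, from mice whose age is not given in the sources used here, so these are levels and not a comparison of conditions. The 6 were Rab12, Rab21, Rab35, Rab39, Rab3b and Rab5c, named after their values were seen. Rab5c, an early endosome Rab, was at 9.51 to 25.2 CPM in the Ift88 libraries and at 97.5 to 104 CPM in the Dzip1 libraries. Rab21, which sorts integrins, was at 2.67 to 11.9 CPM and at 47.1 to 54.6 CPM. Rab12, of late endosomes, was at 6.29 to 35.4 CPM and at 78.8 to 84.0 CPM. Rab35 was at 25.7 to 58.1 CPM and at 80.2 to 87.4 CPM. Rab1 was among the 23 on the other side, at 487 to 537 CPM and at 188 to 209 CPM.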
